A study of Homo sapiens with 6 samples.

Results

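Hydrogen sulfide (H2S) is made and burned by a small set of enzymes, and the 7 that remain when CBS is set aside were followed in Caco-2 cells in which CBS had been targeted. The members were the rows of the gene expression table with the symbols CTH, MPST, SQOR, ETHE1, TST, SUOX and SELENBP1. All 7 were found among the 16781 genes of the table, and all 7 passed the filter on low counts together with 13021 other genes. Messenger RNA was sequenced in 6 libraries: 3 of CBS KO cells and 3 of WT cells. Caco-2 is an established human line derived from a colon adenocarcinoma, and its cells resemble absorptive enterocytes once confluent. CBS KO cells had received Cas9, a guide against CBS and a puromycin resistance gene from a lentivirus and were collected as puromycin-resistant cells, whereas WT cells were unmodified. No cells with an empty vector were analysed here, so infection, selection and loss of CBS cannot be told apart.

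In cells, H2S is released by CBS and CTH, pyridoxal phosphate enzymes that act on homocysteine and cysteine, and by MPST, which takes sulfur from mercaptopyruvate and passes it to thioredoxin. Colon epithelium also meets sulfide from gut bacteria and oxidises it in mitochondria. There SQOR hands the electrons of sulfide to coenzyme Q and loads the sulfur onto glutathione, ETHE1 oxidises that persulfide to sulfite, TST (rhodanese) moves sulfur between glutathione persulfide, sulfite and thiosulfate, and SUOX turns sulfite into sulfate. SELENBP1 is a methanethiol oxidase, which releases H2S from a methylated thiol. An mRNA level does not measure enzyme activity or H2S.

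RefSeq (GRCh38.p14) gave a promoter entry for 4 of the 7 members, namely CTH, SQOR, ETHE1 and SUOX. No promoter entry was available here for MPST, TST and SELENBP1. The sequences of ETHE1, whose mRNA was higher in CBS KO, and of SUOX, whose mRNA was lower, are shown to set the windows of opposite changes side by side. That of CTH, the partner of CBS in transsulfuration, is shown with them, although the rise of its mRNA was called with TMM scaling (explained below) and not with the library total, FPKM or TPM. Each runs 5′ to 3′ towards the gene, and stops before the first base that GENCODE release 29 annotates as an exon of that gene. Capitals mark matches, on either strand, to 3 motifs. They are the GC box, searched as GGGCGG, the CCAAT box, searched by the letters of its name, and the half-site of the cAMP response element, searched as TGACG.
CTH: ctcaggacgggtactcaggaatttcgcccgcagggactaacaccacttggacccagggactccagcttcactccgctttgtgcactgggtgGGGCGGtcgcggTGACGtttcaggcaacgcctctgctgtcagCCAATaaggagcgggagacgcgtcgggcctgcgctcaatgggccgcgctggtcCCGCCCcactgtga
ETHE1: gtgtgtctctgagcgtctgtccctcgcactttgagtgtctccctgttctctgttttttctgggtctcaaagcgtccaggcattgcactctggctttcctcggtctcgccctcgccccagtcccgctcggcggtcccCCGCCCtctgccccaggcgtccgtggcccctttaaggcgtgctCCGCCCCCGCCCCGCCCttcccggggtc
SUOX: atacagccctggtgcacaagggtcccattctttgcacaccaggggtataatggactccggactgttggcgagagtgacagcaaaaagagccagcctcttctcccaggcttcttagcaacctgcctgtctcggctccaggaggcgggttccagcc

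The CTH stretch lies at chr1:70411018-70411217 on the plus strand, the ETHE1 stretch at chr19:43527245-43527451 on the minus strand and the SUOX stretch at chr12:55997026-55997179 on the plus strand, all in GRCh38.p14. Motifs were searched in the full 250 bases before each RefSeq start. ETHE1 held 4 GC boxes, the last 2 of which share 1 base, and SQOR also held 4. CTH held 2 GC boxes, 1 CCAAT box and 1 cAMP response element half-site. SUOX held 2 CCAAT boxes and no GC box. One of these boxes spans bases 98 to 94 before the start, across the end of the stretch shown, and the other bases 72 to 68, beyond it. Of 35116 promoter entries of the same length, 42.6% held a GC box, 32% a CCAAT box and 21.2% the half-site. A C/EBP-ATF response element (TGATGNAA, present in 3.14% of entries) and an antioxidant response element (TGACNNNGC, present in 10.9%) were not matched in the 4 windows. Such matches describe letters and not bound sites.

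The libraries held between 12805180 and 14307287 estimated counts in CBS KO and between 16097680 and 16176745 in WT. CBS, the targeted gene, stood at 13.3, 9.19 and 12.1 TPM (a share of all transcripts that divides by gene length) in CBS KO against 39.3, 43.8 and 41.7 TPM in WT. It fell 2.22-fold (log2 fold change -1.15, SE 0.10, adjusted p = 1.18e-08, edgeR), and its near-identical copy CBSL did not pass (log2 fold change -0.55, adjusted p = 0.12, edgeR). CBSL was called lower with the library total (-0.90, adjusted p = 0.0147, edgeR), FPKM (-0.63, adjusted p = 0.0103, limma) and TPM (-0.88, adjusted p = 0.00145, limma). Deposited counts of both genes were not whole numbers, for example 299.55 for CBS and 26.45 for CBSL in CBS KO replicate 1. How reads that match both copies were divided is not given in the sources used here. A different outcome for CBS and CBSL can therefore not be read from these values. Of the 13028 genes tested, 77.2% were called at an adjusted p under 0.05, with 4998 higher (38.4%) and 5062 lower (38.9%) in CBS KO. That split moved to 2966 higher and 7403 lower with the library total as the scale, and to 1878 higher and 8294 lower with TPM. Over all genes, the median log2 fold change was -0.011 with TMM (trimmed mean of M values, the scaling used here). It was -0.365 with the library total, -0.324 for FPKM and -0.543 for TPM. Whether replicates are separate cultures is not stated in the labels, so the p-values reflect the spread among these 6 libraries alone, and that may be technical. Some Caco-2 identity genes were present: EPCAM averaged 1111 TPM in CBS KO and 784 TPM in WT, and VIL1 averaged 152 TPM in CBS KO and 286 TPM in WT. Both were picked from the list of colonocyte and enterocyte markers described below, of which CDX1, CA4 and AQP8 had few reads. In bulk RNA, fewer cells with a transcript and less of it per cell cannot be told apart.

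Among the 7 sulfide enzymes, 3 rose in CBS KO (ETHE1, CTH and MPST), 3 fell (TST, SUOX and SELENBP1) and SQOR did not pass the test. Being called is no mark of these genes, since 6 of 7 lies near the 77.2% of all genes. The CPM values of the groups did not overlap for 6 of the 7 members, SQOR being the exception, beside 79.1% of all genes tested. In TPM they did not overlap for 6 of 7, CTH being the exception, beside 82% of all genes tested. Calls of 2-fold or more were made for 4 members (ETHE1 higher, TST, SUOX and SELENBP1 lower), beside 23.5% of all genes. ETHE1, TST, SUOX and SELENBP1 kept their direction and their call in the 16 other settings tried for each (scaling, filter, test, unit, replicate block and left-out libraries). The rises of CTH and MPST depended on the scaling, as given with each below. With the library total 2 members were called higher (ETHE1 and MPST) and 4 lower (SQOR, TST, SUOX and SELENBP1), beside 22.8% and 56.8% of all genes. FPKM gave the same 2 and 4, beside 22.9% and 57.9% of genes, and TPM gave 1 higher (ETHE1) and the same 4 lower, beside 15.3% and 67.6%.

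**Figure D1:**
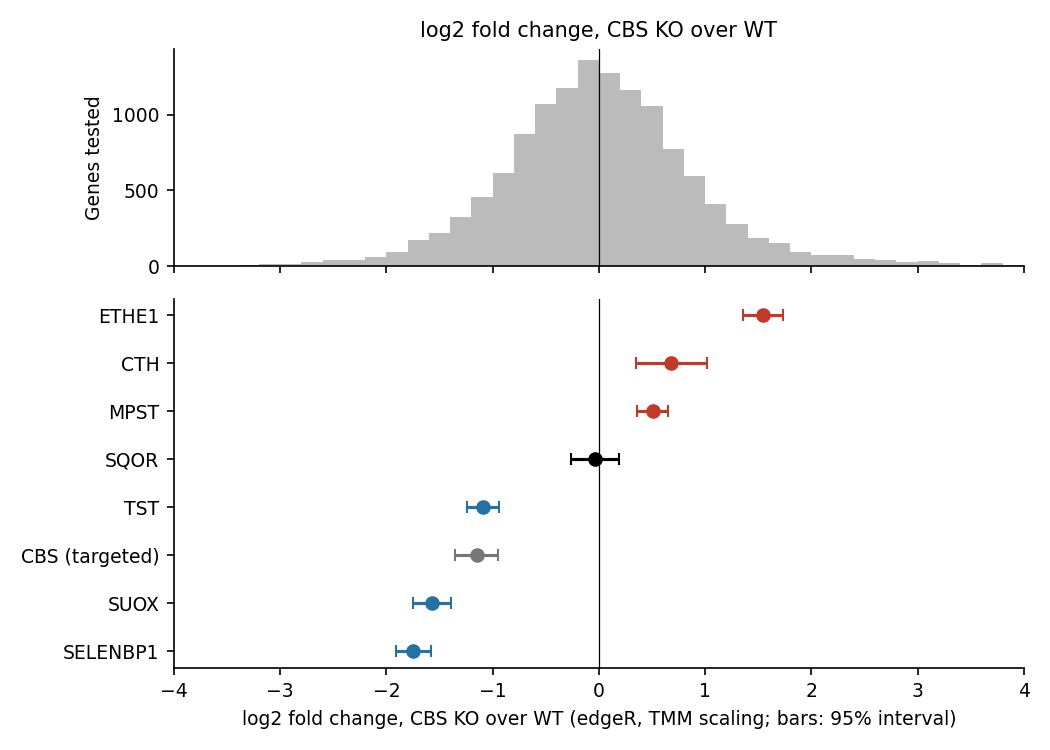
Top, the number of genes tested (y axis) by log2 fold change of CBS KO over WT (x axis, shown between -4 and 4). Below, each sulfide enzyme and the targeted CBS on the same axis with its 95% interval, in red where called higher, blue where called lower, black where not called, and grey for CBS: ETHE1 stands at 1.54 and SELENBP1 at -1.75, with SQOR at -0.039 across 0.

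CTH, cystathionine gamma-lyase, cleaves cystathionine to cysteine and is the other transsulfuration enzyme beside CBS (Entrez 1491, chromosome 1, 70411268 to 70439851). It was the least abundant member per length, with 6.05, 4.41 and 4.08 TPM in CBS KO against 4.65, 5.76 and 4.16 TPM in WT. On this scale the WT range lay within the CBS KO range, and CBS KO replicate 1 was the highest of the 6 libraries. Scaled by TMM, CTH averaged 8.85 ± 1.67 CPM in CBS KO and 5.52 ± 0.97 CPM in WT (SD, n = 3 in each), and there every CBS KO library lay above every WT library. The log2 fold change was 0.68 (SE 0.16, 95% interval 0.35 to 1.02, adjusted p = 0.00086, edgeR). With the library total the rise was not called (0.33, adjusted p = 0.0795, edgeR), nor with FPKM (0.17, adjusted p = 0.214, limma), and with TPM the value was -0.0082 (adjusted p = 0.959, limma). CTH had 318 reads in the 3 CBS KO libraries and 302 in the 3 WT libraries, so it is also the member with the widest interval.

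MPST, mercaptopyruvate sulfurtransferase, was the most abundant of the 7 per length in both groups (Entrez 4357, chromosome 22, 37019742 to 37029815). It had 157.3, 152.1 and 161.9 TPM in CBS KO against 169.96, 163.1 and 168.2 TPM in WT. On this scale every CBS KO library lay below every WT library. Scaled by TMM the order was the opposite, with 132 ± 13.0 CPM in CBS KO and 93.0 ± 2.03 CPM in WT (SD, n = 3 in each). This gave a log2 fold change of 0.51 (SE 0.07, 95% interval 0.36 to 0.65, adjusted p = 4.69e-06, edgeR). The value was 0.15 with the library total (adjusted p = 0.0485, edgeR), 0.14 with FPKM (adjusted p = 0.0297, limma) and -0.089 with TPM (adjusted p = 0.132, limma), so the direction of MPST is not settled. Relative to the median of all genes it stood higher in each of these scalings, by 0.52 with TMM, 0.51 by library total, 0.47 for FPKM and 0.45 for TPM.

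SQOR, the sulfide:quinone oxidoreductase that takes the first step of sulfide oxidation, stood near the median of all genes (Entrez 58472, chromosome 15, 45631148 to 45691281). Its levels were 16.6, 13.7 and 15.3 TPM in CBS KO against 20.7, 23.2 and 26.6 TPM in WT, and these groups did not overlap. In TMM-scaled counts it stood at 17.3 ± 1.68 CPM in CBS KO and 17.8 ± 2.26 CPM in WT (SD, n = 3 in each), where the groups did overlap. The log2 fold change of -0.039 (SE 0.11) had a 95% interval of -0.26 to 0.19 and did not pass (adjusted p = 0.749, edgeR). It was lower and called with the library total (-0.39, adjusted p = 0.00352, edgeR), FPKM (-0.36, adjusted p = 0.00383, limma) and TPM (-0.59, adjusted p = 0.00016, limma). Set against the median of all genes, SQOR lay between -0.028 and -0.049 in these 4 scalings, which differ mainly by a shift that this subtraction removes. Without WT replicate 3, the highest WT library, the log2 fold change was 0.056, and without CBS KO replicate 2, the lowest, it was 0.029.

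ETHE1, the persulfide dioxygenase that acts after SQOR, was the member that rose most (Entrez 23474, chromosome 19, 43506719 to 43527201). It had 130.6, 122.5 and 130.4 TPM in CBS KO against 71.1, 63.5 and 60.9 TPM in WT. Every CBS KO library was above every WT library, and the gap between the groups was wider than the spread within either. TMM-scaled levels were 59.9 ± 6.16 CPM in CBS KO and 20.6 ± 1.80 CPM in WT (SD, n = 3 in each). ETHE1 rose 2.91-fold (log2 fold change 1.54, SE 0.09, 95% interval 1.36 to 1.73, adjusted p = 9.84e-11, edgeR). The log2 fold change was 1.19 by library total, 1.19 for FPKM and 0.96 for TPM, and each of these passed as well. Of all genes tested, 5.76% had a higher log2 fold change.

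TST, the rhodanese that forms or uses thiosulfate, fell (Entrez 7263, chromosome 22, 37010859 to 37020183). The libraries held 40.0, 33.6 and 34.6 TPM in CBS KO against 115.3, 116.9 and 113.3 TPM in WT, with no overlap and little spread in WT. TMM-scaled levels were 24.1 ± 1.51 CPM in CBS KO and 51.3 ± 0.77 CPM in WT (SD, n = 3 in each), a 2.13-fold fall (log2 fold change -1.09, SE 0.07, 95% interval -1.24 to -0.94, adjusted p = 7.15e-10, edgeR). With TPM the log2 fold change was -1.65. Of all genes tested, 9.69% lay lower.

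TST and MPST are neighbours that point away from each other: TST is annotated on the minus strand and MPST on the plus strand. Their RefSeq genes overlap by 442 bases, chromosome 22, 37019742 to 37020183, and no other gene of that annotation overlaps a member. The library protocol marks strand, but whether the counting used it is not given in the sources used here, so reads from the shared bases cannot be assigned with certainty. Within each library, MPST exceeded TST by 3.93, 4.52 and 4.68 times in CBS KO and by 1.47, 1.40 and 1.48 times in WT, in TPM. The ratio does not depend on the scaling between libraries, and it was higher in each CBS KO library than in each WT library. On the log2 scale it averaged 2.13 ± 0.13 in CBS KO and 0.54 ± 0.05 in WT (SD, n = 3 in each), a difference of 1.59 (exact permutation test, two-sided, p = 0.1).

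SUOX, the sulfite oxidase of the mitochondrial intermembrane space, fell (Entrez 6821, chromosome 12, 55997276 to 56005525). It had 6.89, 7.61 and 7.53 TPM in CBS KO against 35.1, 34.2 and 35.2 TPM in WT, and the groups stood far apart. TMM-scaled levels were 13.8 ± 1.47 CPM in CBS KO and 40.9 ± 0.85 CPM in WT (SD, n = 3 in each). This is a 2.97-fold fall (log2 fold change -1.57, SE 0.09, 95% interval -1.75 to -1.39, adjusted p = 6.15e-11, edgeR), and the value was -2.10 with TPM. Only 4.02% of the genes tested had a lower log2 fold change. SUOX was the only member whose deposited counts were not whole numbers, for example 148.43 in CBS KO replicate 1 and 757.78 in WT replicate 1, so its level is an estimate of the authors' counting.

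SELENBP1, the methanethiol oxidase, fell most of the 7 (Entrez 8991, chromosome 1, 151364304 to 151372705). Its levels were 17.5, 18.7 and 16.1 TPM in CBS KO against 95.2, 93.3 and 85.4 TPM in WT. No CBS KO library came near a WT library. TMM-scaled levels were 22.1 ± 1.28 CPM in CBS KO and 73.99 ± 4.30 CPM in WT (SD, n = 3 in each), a 3.36-fold fall (log2 fold change -1.75, SE 0.08, 95% interval -1.91 to -1.58, adjusted p = 4.51e-12, edgeR). With TPM the log2 fold change was -2.32, and 2.83% of the genes tested lay lower with TMM.

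**Figure D2:**
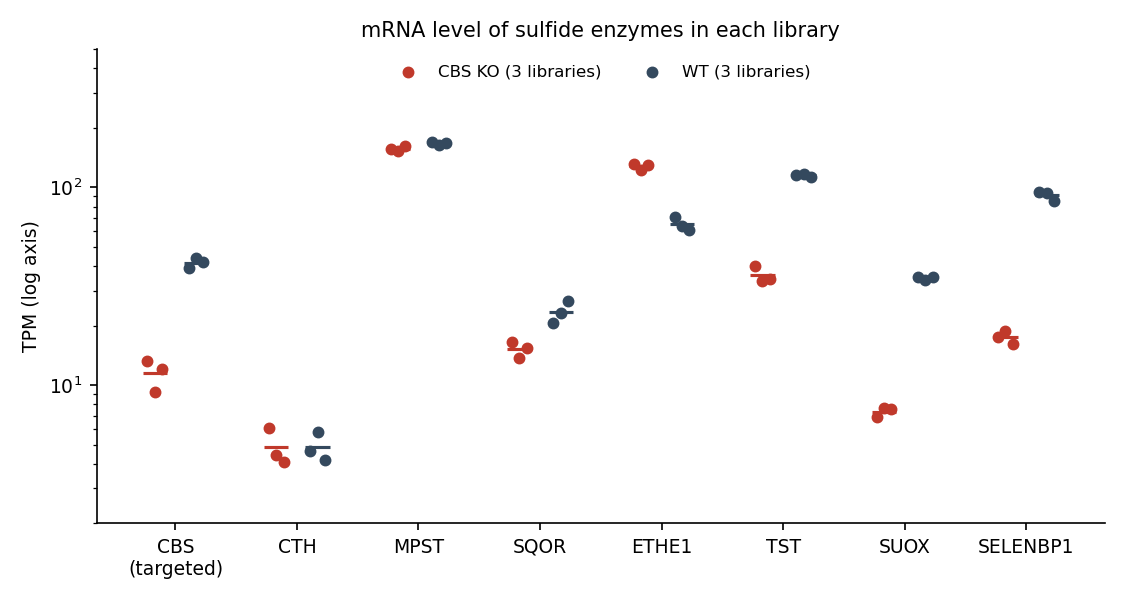
TPM of CBS and the 7 sulfide enzymes (x axis) on a log axis (y axis), with 1 point per library, CBS KO in red and WT in dark blue, and a line at each mean. ETHE1 is the member that is higher in CBS KO on this scale, and TST, SUOX and SELENBP1 are lower by the widest gaps.

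The order of abundance among the members differed between the groups. In CBS KO it ran MPST (157 TPM), ETHE1 (128), TST (36.1), SELENBP1 (17.4), SQOR (15.2), SUOX (7.34) and CTH (4.85 TPM), as means of 3 libraries. Of these neighbours, SELENBP1 and SQOR did not differ beyond their spread. In WT the order was MPST (167 TPM), TST (115), SELENBP1 (91.3), ETHE1 (65.2), SUOX (34.8), SQOR (23.5) and CTH (4.86 TPM), and the ranges of neighbours did not overlap. ETHE1 thus held the second place in CBS KO and the fourth in WT. The 7 genes summed to 366 ± 11.7 TPM in CBS KO and 502 ± 9.26 TPM in WT (SD, n = 3 in each). Of that sum ETHE1 made up 34.9 ± 0.27% in CBS KO and 13.0 ± 0.81% in WT, and SELENBP1 4.78 ± 0.48% in CBS KO and 18.2 ± 0.77% in WT. The share of SQOR was 4.15 ± 0.27% in CBS KO and 4.69 ± 0.68% in WT, a difference within the spread of WT.

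Ratios within a library compare successive steps without any scaling between libraries. SQOR, which makes the persulfide, stood to ETHE1, which consumes it, at 0.127, 0.112 and 0.118 in CBS KO against 0.291, 0.365 and 0.437 in WT. SUOX, which removes the sulfite that ETHE1 makes, stood to ETHE1 at 0.0528, 0.0621 and 0.0578 in CBS KO against 0.493, 0.539 and 0.578 in WT. Both ratios were lower in each CBS KO library than in each WT library. On the log2 scale SQOR to ETHE1 differed by -1.60 (-3.07 ± 0.09 in CBS KO, -1.48 ± 0.30 in WT) and SUOX to ETHE1 by -3.22 (-4.12 ± 0.12 in CBS KO, -0.90 ± 0.12 in WT). The ratio of CTH to CBS was 0.455, 0.480 and 0.338 in CBS KO against 0.118, 0.132 and 0.0997 in WT, a log2 difference of 1.86. In TPM, CTH averaged 4.85 in CBS KO and 4.86 in WT, and CBS averaged 11.5 in CBS KO and 41.6 in WT. In this unit the difference in the ratio lies in the lower level of CBS. With TMM the log2 fold change was 0.68 for CTH and -1.15 for CBS. How the difference divides between CTH and CBS thus depends on the scaling. For each of the 4 ratios the exact permutation test (two-sided) gave p = 0.1 and an adjusted p of 0.1 over the 4 ratios, which is the smallest value that 3 against 3 libraries allow.

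**Figure D3:**
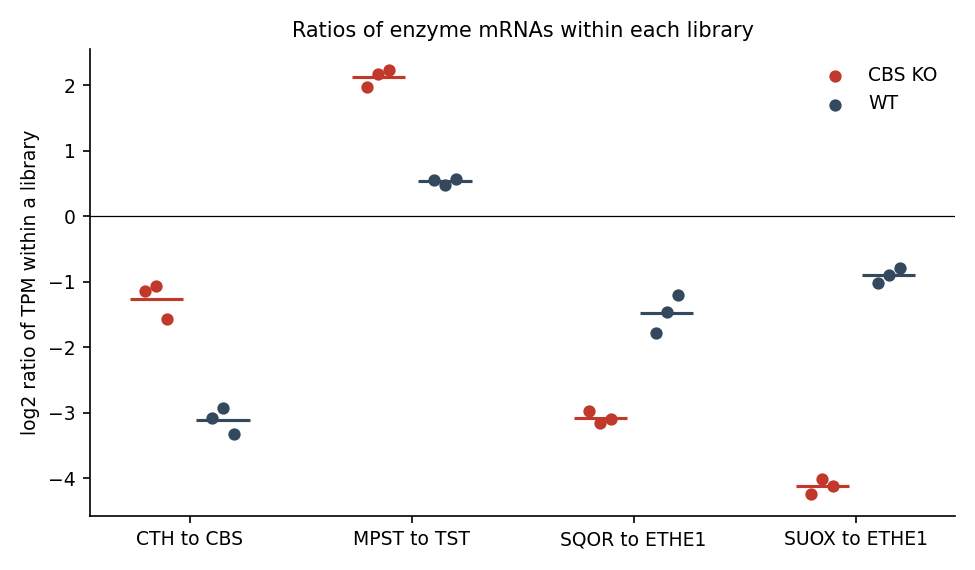
The log2 ratio of TPM between 2 genes of the same library (y axis) for 4 pairs (x axis), with CBS KO in red, WT in dark blue and a line at each mean of 3 libraries. The groups do not overlap for any pair, and SUOX to ETHE1 differs most, by -3.22.

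**Figure D4:**
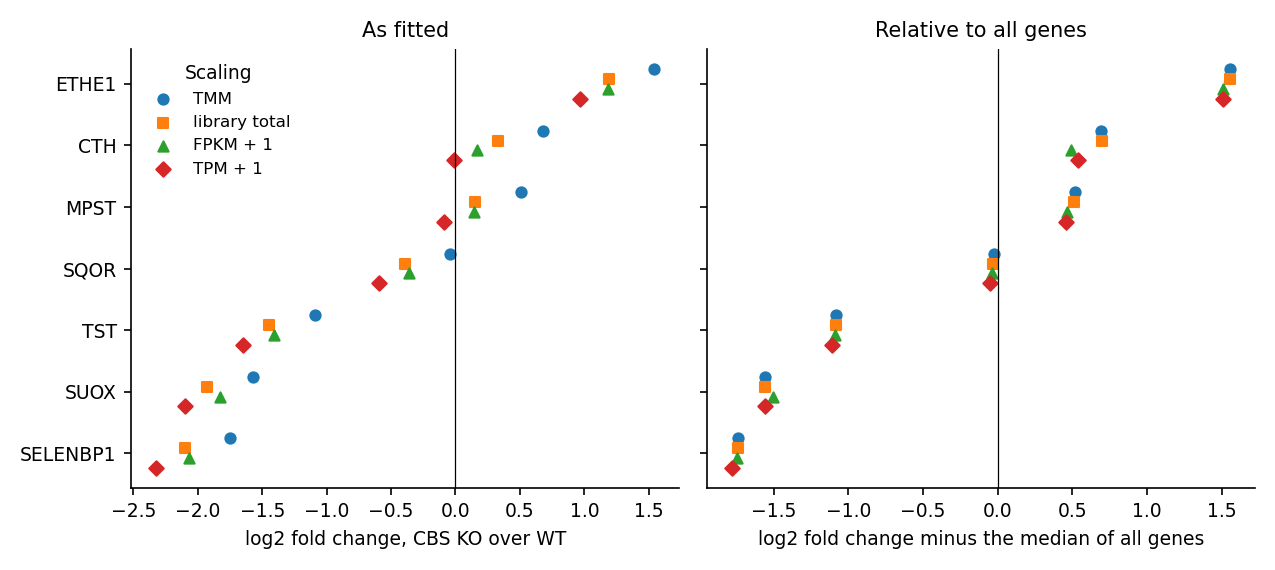
The log2 fold change of CBS KO over WT (x axis) for each sulfide enzyme (y axis) with 4 scalings, as fitted on the left and after subtraction of the median of all genes on the right. CTH and MPST cross 0 with TPM on the left. On the right the 4 values of each gene lie close together, because the subtraction removes the shift that all genes share between scalings.

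The transcripts of the members differ in build. The protein-coding GENCODE transcript with the longest coding sequence has 2 exons in TST, 3 in MPST and SUOX, 6 in ETHE1, 10 in SQOR and 12 in CTH and SELENBP1. Its GC content is 42.5% in CTH, 52.1% in SUOX, 52.6% in SQOR, 58.0% in SELENBP1, 63.5% in ETHE1, 63.7% in TST and 66.3% in MPST. Across the 12721 tested genes with such a transcript the median log2 fold change was -0.32 with 1 exon, 0.08 with 2 to 4 exons, 0.09 with 5 to 9 and -0.09 with 10 or more. By GC content it was 0.205 in genes below 42.9%, where CTH lies, -0.034 between 42.9% and 49.9%, -0.157 between 49.9% and 57.8%, where SUOX and SQOR lie, and -0.108 above, where the other members lie. The part of transcript build and GC content in the changes of the members was not tested.

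Genes with the most similar profiles over the 6 libraries were sought by the root mean square difference of centred log2 CPM, among 10883 genes that averaged 5 CPM or more. MPST was nearest to PPIL3 (0.0104) and ELOC (0.0159), TST to DHRS2 (0.0215) and EPHB2 (0.0308), and SUOX to AAR2 (0.0468) and MTHFSD (0.0475). ETHE1 was nearest to KLK1 (0.0469) and MAPRE3 (0.0564), SQOR to ADI1 (0.0586) and NOL7 (0.0618), and SELENBP1 to CACHD1 (0.0656) and CHST3 (0.0663). CTH was nearest to SGTB (0.101) and to GCLM (0.11), which is the modifier subunit of glutamate-cysteine ligase in glutathione synthesis. Such likeness describes mainly the difference between the groups, which many genes share.

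A list of 17 genes held enzymes that feed, take up or methylate sulfide and cysteine sulfur, among them the targeted CBS and its copy CBSL. Of the 15 tested, 4 rose, 8 fell and 3 did not pass, beside 38.4% higher and 38.9% lower of all genes, and their median was -0.55 on the log2 scale beside -0.011 for all genes. Without CBS and CBSL, 4 of 13 rose and 7 fell, with the same median of -0.55. METTL7B (TMT1B), a thiol methyltransferase that can methylate H2S, fell 4.88-fold, with 10.9 ± 1.75 CPM in CBS KO and 53.2 ± 2.64 CPM in WT. NFS1, the cysteine desulfurase of iron-sulfur cluster assembly, fell 2.83-fold, with 34.6 ± 2.25 CPM in CBS KO and 97.9 ± 4.66 CPM in WT. DAO, the D-amino acid oxidase that can make mercaptopyruvate from D-cysteine, fell 2.18-fold at a low level of 1.14 ± 0.25 CPM in CBS KO and 2.50 ± 0.20 CPM in WT. The 4 that rose were TSTD1, a small rhodanese-domain protein (log2 fold change 1.09), GOT1 (0.74), CSAD (0.48) and CARS1 (0.45), named after their values were seen. With TPM, GOT1 was not called, and CSAD and CARS1 turned to -0.065 and -0.16 and were not called. Without CBS and CBSL, 2 of 13 were higher and 9 lower with the library total, beside 22.8% and 56.8% of all genes, and 1 was higher and 8 lower with TPM, beside 15.3% and 67.6%, so the share that was lower is near that of all genes on that scale.

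Genes of the cofactors were described in the same way, and their counts with TMM stand beside 38.4% higher and 38.9% lower of all genes. SUOX needs molybdenum cofactor, and of its 4 synthesis genes 2 fell and 2 did not pass (median -0.94). MOCS3, which sulfurates the small subunit of molybdopterin synthase, fell 5.25-fold, with 5.04 ± 0.68 CPM in CBS KO and 26.4 ± 0.79 CPM in WT. MOCS1, which catalyses the first step, fell 3.70-fold, with 15.2 ± 0.48 CPM in CBS KO and 56.2 ± 1.85 CPM in WT. MOCS2 and GPHN had log2 fold changes of 0.04 and 0.0012 with TMM, and all 4 genes were called lower with the library total and with TPM, where 56.8% and 67.6% of all genes were. With TPM the values of MOCS2 and GPHN lay close to the median of all genes. Of 13 coenzyme Q genes, which supply the electron acceptor of SQOR, 8 fell, 1 rose and 4 did not pass (median -0.31). With TPM 12 were lower, where 67.6% of all genes were, with a median of -0.92 beside -0.543 for all genes. COQ9, COQ3 and COQ8B fell 2.08-fold, 1.89-fold and 1.62-fold, and COQ10B, a coenzyme Q chaperone, rose 2.74-fold with 38.7 ± 2.42 CPM in CBS KO and 14.1 ± 0.83 CPM in WT. Pyridoxal phosphate is the cofactor of CTH and CBS. Of the 3 genes reported here that handle it, 2 rose and 1 did not pass. PDXP, a phosphatase, rose 2.61-fold. PLPBP rose 1.16-fold with TMM, was lower with the library total, FPKM and TPM, and was not called without WT replicate 2.

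Of 11 tested genes for the transport of sulfite, thiosulfate and sulfate and the activation of sulfate, 4 were higher and 5 lower, near the 38.4% and 38.9% of all genes (median 0.11, and -0.48 with TPM). SLC25A10, the mitochondrial dicarboxylate carrier that also moves thiosulfate and sulfite, fell 2.38-fold, with 13.7 ± 0.67 CPM in CBS KO and 32.7 ± 4.28 CPM in WT. SLC26A1, a sulfate exchanger, fell 5.27-fold. PAPSS2, which activates sulfate, rose 2.58-fold, and BPNT2, the Golgi phosphatase that clears its by-product, rose 2.89-fold with 247 ± 33.9 CPM in CBS KO and 85.7 ± 6.88 CPM in WT. Thioredoxin and glutathione carry sulfur from MPST, SQOR and TST, and of 9 genes that make, reduce or supply them 4 rose and 2 fell (median 0.09, and -0.46 with TPM). The share that rose is near the 38.4% of all genes. SLC7A11, the cystine importer, rose 2.94-fold, TXNRD1, the cytosolic thioredoxin reductase, 2.30-fold, GSR, the glutathione reductase, 1.84-fold and GCLM 1.66-fold, of which SLC7A11 and GCLM were not called with TPM. TXN itself, named after its value was seen, had a log2 fold change of -0.15 and did not pass (adjusted p = 0.0539, edgeR), and it was called lower with TPM (-0.73, adjusted p = 1.17e-08, limma). Adjusted p-values of the changed genes named from these lists were at most 0.0141 (PLPBP, edgeR).

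Of 17 tested markers of colonocytes and enterocytes, 12 rose and 4 fell with TMM (median 0.40), beside 38.4% and 38.9% of all genes. With TPM 4 rose and 9 fell (median -0.20), beside 15.3% and 67.6%. KRT20, a keratin of mature colonocytes, rose 5.54-fold, from 0.77 CPM in WT to 4.28 CPM in CBS KO. GUCA2A and GUCA2B, peptide activators of the epithelial cyclase, rose 5.93-fold and 2.59-fold. Their levels were also low, at 1.57 and 1.11 CPM in WT against 9.34 and 2.89 CPM in CBS KO. CDX2, the intestinal transcription factor, fell 3.83-fold, from 294 CPM in WT to 76.8 CPM in CBS KO. Among abundant markers outside the naming rule, HNF4A fell 2.37-fold (772 CPM in WT, 326 CPM in CBS KO). EPCAM rose 2.12-fold (528 CPM in WT, 1122 CPM in CBS KO). Both were picked with their results known. CDX1, CA4 and AQP8 had at most 7 reads in the CBS KO libraries and at most 28 in the WT libraries, summed over libraries. Fibroblast markers, 7 of 8 with values, summed to between 42.5 and 49.1 TPM in CBS KO and between 77.6 and 87.3 TPM in WT, of which COL1A1 gave most. PDGFRA had 254 reads in CBS KO and 1352 in WT, PDGFRB had 174 and 1074, and COL1A2 had 0 and 1. Of the 5 tested with TMM, 1 rose and 3 fell, beside 38.4% and 38.9% of all genes. Leukocyte markers, 6 of 8 with values, summed to between 92.8 and 95.6 TPM in CBS KO and between 57.9 and 68.4 TPM in WT, of which CD68 gave most. CD14 had 152 reads in CBS KO and 503 in WT, LYZ had 284 and 135, and PTPRC had 1 and 0. Of the 4 tested with TMM, 2 rose and 1 fell, beside the same shares of all genes. Endothelial markers, 4 of 6 with values, summed to between 2.90 and 3.13 TPM in CBS KO and between 13.2 and 14.4 TPM in WT. PECAM1 gave most of this sum, with 264 reads in CBS KO and 1368 in WT, whereas CDH5 had 17 and 3. The part of these markers in the results was not tested.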

How the data were processed

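The authors deposited 3 kinds of value per gene and library, per the file headers: estimated counts, which are not scaled and of which 7.12 to 7.43% are not whole; FPKM, which the authors divided by gene length and library; and TPM, which the authors also deposited and which sums to 1000000 in a library. Tools named in the submitters' processing notes, without roles, are HISAT2 2.2.1, StringTie 2.1.6, cutadapt 1.9, edgeR and DESeq2, with the build GRCh38; how reads were assigned to genes, and with what use of strand, is not given in the sources used here. A count of 0 allows up to 0.164 to 0.264 CPM, for counting error only.

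Counts were rounded. Genes passing filterByExpr (13028) were scaled by TMM and tested with edgeR 4.0.16 (quasi-likelihood, robust; limma 3.58.1, R 4.3.3), all 6 libraries in 1 fit without covariates, with Benjamini-Hochberg adjustment over all genes. Standard errors came from the estimate and its F statistic. Alternatives used DESeq2 1.42.0 and limma-trend on log2(FPKM + 1), log2(FPKM + 0.1) and log2(TPM + 1), over genes of at least 1 in 3 libraries. The fit was tested on simulated counts in which few genes changed, in nearly equal numbers up and down. That simulation cannot test the scaling. Mitochondrially encoded mRNAs were listed as a quality marker but had no values among the genes analysed here. They could therefore not be used to judge RNA quality. The authors' mean columns were not used. Replicates of a group differed by more than sampling noise. Named genes were the members, CBS and CBSL, up to 4 called genes per list with the largest change and a mean of at least 1 CPM, and the 2 nearest profiles per member. The pyridoxal phosphate list is incomplete, because part of it is not reported here. Members and lists were chosen with earlier results of these data known.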

Additional observations from a re-analysis of the deposited data

How the results depend on the processing

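Of the 7 sulfide enzymes, ETHE1, TST, SUOX and SELENBP1 kept direction and call in each setting. CTH was no longer called with the library total (0.33), log2(FPKM + 1) with and without a filter (0.17 in both) and log2(FPKM + 0.1) (0.21), and turned to -0.0082 with log2(TPM + 1), as did MPST to -0.089, so that 1 member was called higher there. SQOR was called lower with the library total (-0.39), log2(FPKM + 1) with and without a filter (-0.36 in both), log2(FPKM + 0.1) (-0.39) and TPM (-0.59), and was 0.056 without WT replicate 3 and 0.029 without CBS KO replicate 2. The median over all genes moved as well, from -0.011 with TMM to -0.543 with TPM, and the cause of these shifts was not tested. Leaving out 1 library gave log2 fold changes of 0.51 to 0.81 for CTH, 0.41 to 0.55 for MPST, -0.13 to 0.056 for SQOR, 1.44 to 1.61 for ETHE1, -1.13 to -1.04 for TST, -1.65 to -1.50 for SUOX and -1.80 to -1.72 for SELENBP1. Genes called higher numbered 4998, against 2966 with the library total, 2722 with log2(FPKM + 1), 3151 with it unfiltered, 2715 with log2(FPKM + 0.1) and 1878 with TPM, where 8294 were lower. The 4 ratios kept their sign with FPKM, with counts and without each library. These settings could hardly turn it, since the group difference of such a ratio barely depends on the unit. The groups also did not overlap, so no left-out library could turn the sign. Of 37 called genes from the lists (those the rule names, with TSTD1, GOT1, CSAD and CARS1), 34 kept their sign in each setting and 30 also their call; PLPBP, CSAD and CARS1 turned sign with TPM, and PLPBP also with the library total and FPKM.

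Whether the replicate numbers pair the libraries is not settled: deviations of same-numbered libraries correlated at 0.0275, 0.0204 and 0.0225. CBS KO replicates 1 and 3 correlated best with the WT library of the same number, and CBS KO replicate 2 with WT replicate 3 (0.0221). With the replicate block 4986 genes were higher and 5058 lower, and the log2 fold changes were 0.68 for CTH, 0.50 for MPST, -0.038 for SQOR, 1.54 for ETHE1, -1.09 for TST, -1.57 for SUOX and -1.75 for SELENBP1, with no call of a member changed. Depth limits CTH most, at 84 to 131 reads per library.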
